A study of Mus musculus with 23 samples.

Results

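Expression of 10 heat shock chaperones and cofactors was followed in cells sorted from mouse mammary tumours. The genes are Hspa1a, Hspa1b, Hspa8, Hsph1, Dnajb1, Hspb1, Bag3, Hspe1, Hspd1 and Hsp90aa1, chosen by symbol from the 48397 symbols of the count table. All 10 are in the table, and all 10 passed the filter on low counts in each comparison. The tumours are Met1-iRFP breast tumours of FVB mice. Met-1 is a mammary cancer line from the MMTV-PyMT mouse model. A near-infrared fluorescent protein, iRFP, lets its cells be sorted by colour. The iRFP-positive sort is labelled cancer cells and the iRFP-negative sort is labelled cells of the tumour microenvironment (TME). Mice were either exercised or sedentary, which gives 4 groups, with 8 libraries of cancer cells from sedentary mice, 7 of cancer cells from exercised mice, and 4 of TME cells from each treatment. All groups share the tumour line and the strain. No source used here gives the form and length of exercise or the age of the mice. Whether every library came from its own mouse is not said in the labels, and p-values therefore cover only the spread between these libraries, which may be technical.

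Heat shock chaperones bind unfolded protein and help it to fold or to be degraded. Hspa1a and Hspa1b encode the stress-inducible HSP70 and Hspa8 the constitutive form. Dnajb1, an HSP40, delivers clients to HSP70 and stimulates its ATPase, while Hsph1, an HSP110, and Bag3 act as nucleotide exchange factors. Bag3 also joins HSP70 to the small heat shock protein Hspb1, which holds unfolded protein without ATP. Hspd1 and Hspe1 form the chaperonin of the mitochondrial matrix, and Hsp90aa1 is the inducible cytosolic HSP90. Heat shock factor 1 switches on most of these genes after heat and other stresses that unfold protein, by binding repeats of the unit nGAAn in their promoters.

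Total counts lay between 15924340 and 37388479 per library. Mitochondrial transcripts took 1.86% to 3.90% of counts in the cancer sort and 2.61% to 42.2% in the TME sort, where the sedentary libraries 4 and 6 stood apart with 42.2% and 14.5%. Markers of leukocytes and endothelium were lower in the cancer sort, by a median of -3.82 log2 for 12 pan-leukocyte genes and -4.19 for 10 endothelial genes in sedentary mice. The summed level of 10 epithelial and tumour markers overlapped between the sorts, at 336 to 562 CPM (read counts per library scaled to a common depth) in the sedentary cancer sort and 318 to 547 CPM in the sedentary TME sort. Of the 6 of these markers that were tested only the cadherin gene Cdh1 was called, as lower in the cancer sort, at -2.38 ± 0.67 in sedentary and -3.23 ± 0.69 in exercised mice (log2, SE; adjusted p = 0.0062 and 0.00067 by edgeR). Krt18 was at 92.6 ± 18.1 CPM and Epcam at 1.32 ± 0.60 CPM in the sedentary cancer sort (SD, n = 8).

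Per kilobase of exon, Hsp90aa1 was the most abundant of the 10 genes in all 4 groups, at 536 ± 84.0 CPM per kb in the sedentary cancer sort (SD, n = 8), and Hspa8 came next with 186 ± 41.6. In each of the 23 libraries Hsp90aa1 lay above Hspa8. The middle of the order was not resolved, since Dnajb1, Hspb1, Hspd1 and Hspa1b had means of 123, 123, 104 and 93.0 CPM per kb in that group, and neighbours changed places in 3 to 5 of its 8 libraries. Hspa1a was last in all 4 groups, at 7.86 ± 6.50 CPM per kb in the sedentary cancer sort and 33.6 ± 34.9 in the sedentary TME sort (SD, n = 4).

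**Figure D1:**
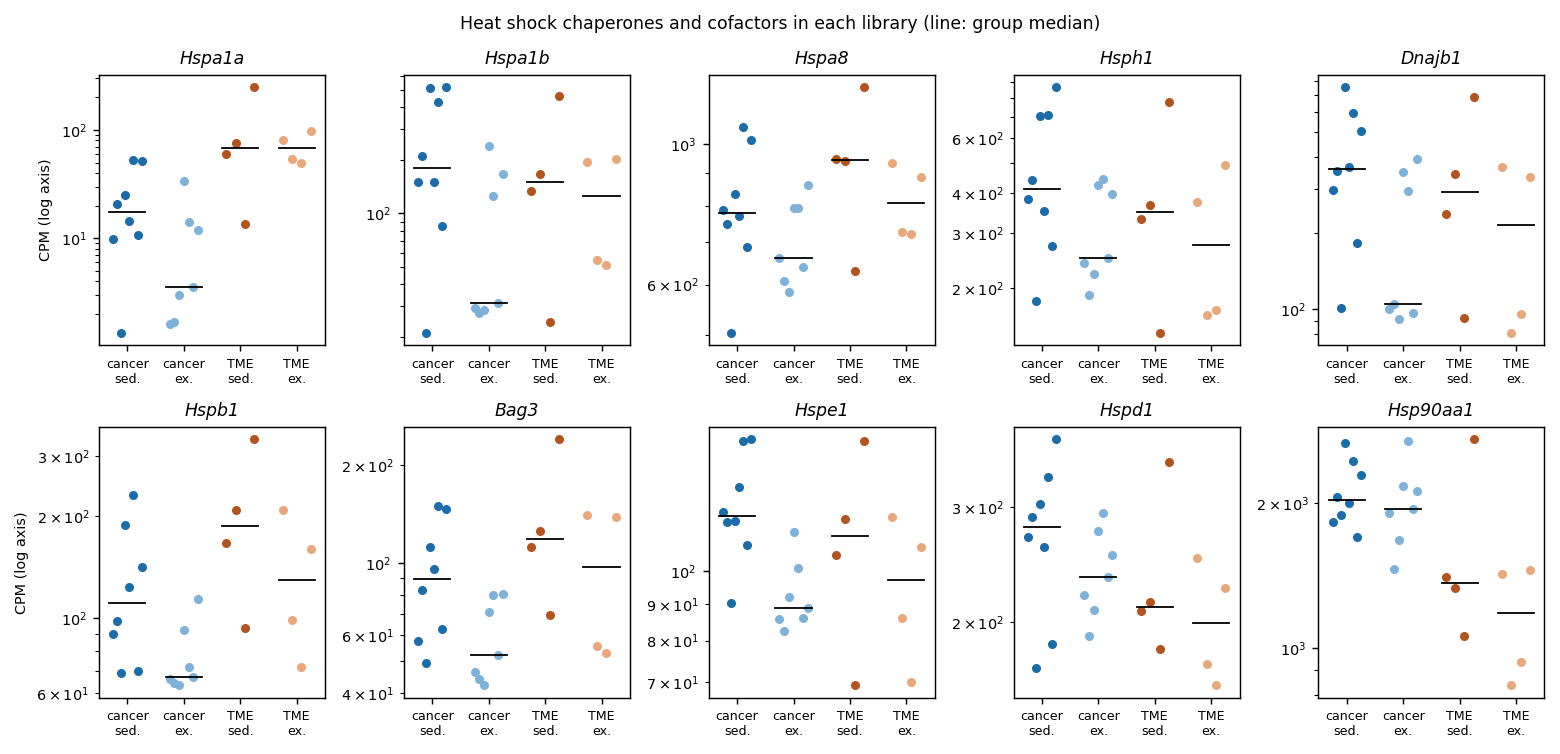
CPM (log axis) of the 10 genes in each library of the 4 groups, with the group median as a line. In the exercised cancer sort 4 libraries sit low and 3 high for Hspa1b and Dnajb1. In the TME sort sedentary library 10 is the highest and sedentary library 9 the lowest of its group for every gene.

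Hspa1a and Hspa1b are neighbouring intronless copies on chromosome 17 (GRCm38, minus strand), at chr17:34969190-34972156 and chr17:34956436-34959238. Their upstream sequences are shown because the copies are nearly identical there. Each line gives the 250 bases before the start in RefSeq (GRCm38.p6), at chr17:34972157-34972406 and chr17:34959239-34959488, 5′ to 3′ on the minus strand. Capitals mark a match to GAANNTTC, a pair of inverted heat shock units.
Hspa1a: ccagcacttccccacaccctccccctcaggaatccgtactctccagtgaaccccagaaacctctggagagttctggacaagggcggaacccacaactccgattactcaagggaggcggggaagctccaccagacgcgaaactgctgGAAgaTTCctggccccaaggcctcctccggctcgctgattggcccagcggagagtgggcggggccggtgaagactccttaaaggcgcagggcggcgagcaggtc
Hspa1b: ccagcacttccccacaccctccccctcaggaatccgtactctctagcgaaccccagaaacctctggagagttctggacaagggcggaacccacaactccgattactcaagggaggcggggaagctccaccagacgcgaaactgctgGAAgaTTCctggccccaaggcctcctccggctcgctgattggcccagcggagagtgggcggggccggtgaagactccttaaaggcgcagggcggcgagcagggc
The 2 sequences were identical at 247 of 250 bases (98.8%). Counted from the 5′ end with Hspa1a first, they differ by C44T, T47C and T249G, and both carry GAAGATTC beginning 104 bases before the start. The transcripts also share long stretches. Of all 100-base windows, 52.9% of Hspa1a and 50.1% of Hspa1b are absent from the other copy, so part of the reads of this pair cannot be assigned to a single copy, and how they were counted is not stated in the labels. The exon of Hspa1a shares 564 bases with the predicted gene Gm20481.

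The other members lie at chr9:40800984-40810087 (Hspa8), chr5:149614287-149636376 (Hsph1), chr8:83608193-83612653 (Dnajb1), chr5:135887919-135889563 (Hspb1), chr7:128523616-128546981 (Bag3) and chr12:110690605-110702728 (Hsp90aa1), all protein-coding genes, with 262 exon bases of Hspa8 shared with small nucleolar RNA genes.

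The RefSeq promoter table held 8 of the 10 genes, all but Hspa8 and Hsp90aa1. Both strands of the 250 upstream bases were searched for GAANNTTC or TTCNNGAA, found in 12.8% of 32851 promoter windows, and for the overlapping longer form GAANNTTCNNGAA or TTCNNGAANNTTC, found in 0.466%. Hspe1 (chr1:55088132-55091307, plus strand) and Hspd1 (chr1:55077835-55088243, minus strand) are transcribed away from each other, with 112 bases of annotated exon in common. The longer form was found only in the region this pair shares, 2 times within chr1:55088059-55088076, a stretch annotated as exon of Hspd1 and lying before the annotated start of Hspe1. Hspb1 had 2 pairs of units in chr5:135887669-135887918 and Hsph1 had 1, shown with its flanks at chr5:149636351-149636380 on the minus strand, across the annotated start of the gene. No match was found in the windows of Bag3 and Dnajb1. The stretches that carry matches follow, with the units in capitals.
Hspe1 and Hspd1, plus strand: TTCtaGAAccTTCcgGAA
Hspb1, plus strand: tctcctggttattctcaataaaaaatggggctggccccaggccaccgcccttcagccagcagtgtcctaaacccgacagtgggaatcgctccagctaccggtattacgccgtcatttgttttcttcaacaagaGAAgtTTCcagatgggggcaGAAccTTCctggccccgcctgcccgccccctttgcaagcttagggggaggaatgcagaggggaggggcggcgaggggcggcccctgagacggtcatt
Hsph1, minus strand: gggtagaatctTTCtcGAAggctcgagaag

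The first comparison asked whether the chaperones differ between exercised and sedentary mice in the cancer sort. By edgeR's quasi-likelihood test none of the 10 passed an adjusted p of 0.05, and none of the 15096 genes tested did (0%). All 10 had log2 fold changes below 0, with a median of -0.70, beside 52.6% of all genes below 0 with a median of -0.01 for all genes tested. The 10 genes varied together between these libraries (median r of 0.86 with group means removed), so they are not 10 separate observations. At an unadjusted p under 0.05 there were 3 of the 10 (Hspe1, Hspb1 and Bag3), beside 12.6% of all genes. With a weighted limma voom fit 5 passed as lower (Hspa1b, Dnajb1, Hspb1, Bag3 and Hspe1), and with DESeq2 1 did (Hspe1), where these tools called 197 and 161 of all genes.

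Hspe1, the lid of the mitochondrial chaperonin, had the smallest p. It was at 90.2, 119 and 152 CPM (lowest, median and highest) in the 8 sedentary libraries and at 82.4, 88.9 and 113 CPM in the 7 exercised ones. Only the sedentary libraries 4 and 9 lay within the exercised range. Its fold change was -0.45 ± 0.10 log2 (SE; adjusted p = 0.0890 by edgeR). The adjusted p was 0.0107 with DESeq2, 0.0340 without the filter on low counts and 0.0401 without sedentary library 4, so the side of the threshold depended on these choices. The adjusted p was 0.302 with all 23 libraries in a single fit and 0.999 with libraries blocked by number (unadjusted p = 0.0059 by edgeR). This block rests on a number alone, since cancer libraries of equal number had r of -0.07 to 0.09 between the treatments over all genes. Hspd1, the barrel of the same chaperonin and its divergent neighbour, was at 170.1, 279.8 and 381 CPM in sedentary and 191, 235 and 294 CPM in exercised libraries, with a fold change of -0.23 ± 0.15.

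Among the inducible cytosolic genes the fold changes were larger and so were their errors. Hspa1b was at 21.0 CPM in sedentary library 4, at 84.3 in library 9, between 151 and 211 in libraries 2, 3 and 6, and between 428 and 522 in libraries 5, 7 and 10. The exercised libraries 1, 2, 4 and 8 were at 29.1, 27.4, 28.2 and 31.0 CPM, and libraries 5, 7 and 10 at 242, 126 and 168 CPM. The exercised libraries thus fell into clusters of 4 and 3, and the low cluster lay above sedentary library 4 and under every other sedentary library. The fold change was -1.52 ± 0.73 (SE; adjusted p = 0.412).

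Hspa1a followed with 1.33, 17.4 and 52.7 CPM in sedentary and 1.61, 3.51 and 33.6 CPM in exercised libraries, and a fold change of -1.27 ± 0.78 (adjusted p = 0.533). Dnajb1 was at 102, 358 and 757 CPM in sedentary libraries, and the exercised ones were again split, with 4 between 91.9 and 105 CPM and 3 between 293 and 393 CPM (-0.99 ± 0.48, adjusted p = 0.423). Hsph1 was at 183, 413 and 870 CPM against 191, 249 and 446 CPM (-0.69 ± 0.32, adjusted p = 0.399). The groups overlapped for each of these genes.

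The small heat shock gene Hspb1 was at 68.8, 111 and 231 CPM in sedentary libraries. In 4 of the 7 exercised libraries it was under every sedentary value, and the range there was 63.4 to 114 CPM around a median of 67.2. The fold change was -0.75 ± 0.26 (SE; adjusted p = 0.279). Bag3, its partner in HSP70 complexes, was at 49.4, 89.5 and 150.5 CPM in sedentary and 42.1, 52.3 and 80.5 CPM in exercised libraries (-0.71 ± 0.26, adjusted p = 0.306). The constitutive Hspa8 and the abundant Hsp90aa1 had the fold changes nearest to 0, at -0.22 ± 0.13 and -0.12 ± 0.12.

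Other measures moved beside these fold changes. Of 20 immediate early genes, transcription factors and regulators such as Fos and Egr1 that are switched on within minutes of a stimulus, 18 were below 0 (median -0.21, none called), with the smallest p for Egr3 at -1.03 ± 0.42. Their summed level was 2947 to 7062 CPM in sedentary and 3857 to 6311 CPM in exercised libraries. Of 12 pan-leukocyte markers 11 were above 0 (median 0.66, none called), with summed levels of 38.0 to 79.2 CPM in sedentary and 60.2 to 134 CPM in exercised libraries and no marker at 0. With the immediate early level as a covariate the median of the 10 genes was -0.41 and Hspe1 was at -0.37 ± 0.08 (adjusted p = 0.0633). Fitted with the pan-leukocyte level instead, the median was -0.53 and Hspe1 was at -0.41 ± 0.13 (adjusted p = 0.674). All 6 tested epithelial and tumour markers were below 0 in this contrast (median -0.32, none called). Of 5 tested endothelial markers 3 were below 0 and 2 above (median -0.24, none called). Neither of these lists was fitted as a covariate, and their part in the chaperone values was not tested. In bulk samples fewer cells of a type and less RNA per cell cannot be told apart.

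The wider chaperone network was less one-sided in the cancer sort. Of 94 tested genes in 10 lists 53 were below 0 and none was called, with a median of -0.02. The 9 ubiquitin genes and other heat shock targets were all below 0 (median -0.29), with the smallest p for the heme oxygenase Hmox1 at -0.68 ± 0.21 (adjusted p = 0.230). Of the 8 subunits of TRiC, the cytosolic chaperonin that folds actin and tubulin, 7 were above 0 (median 0.07), led by Cct7 at 0.27 ± 0.09. Other HSP70 and HSP110 genes had 5 of 7 above 0, with Hspa4 at 0.23 ± 0.06 (adjusted p = 0.147). The HSP40 genes had 12 of 15 below 0 (Dnajb2 at -0.27 ± 0.09), the small heat shock genes 4 of 4 (Hspb11 at -0.18 ± 0.11) and the heat shock factors 2 of 3 (Hsf2 at -0.19 ± 0.09). The HSP90 genes and cochaperones had 10 of 16 above 0 (Trap1 at 0.16 ± 0.07) and the HSP70 cofactors 7 of 11, where the smallest p fell to Grpel1 at -0.22 ± 0.11. Chaperones of the endoplasmic reticulum were split, 6 above and 8 below (Hspa5 at 0.17 ± 0.09), and 5 of 7 mitochondrial proteases and disaggregase genes were below 0, while Yme1l1 had the smallest p at 0.22 ± 0.07.

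**Figure D2:**
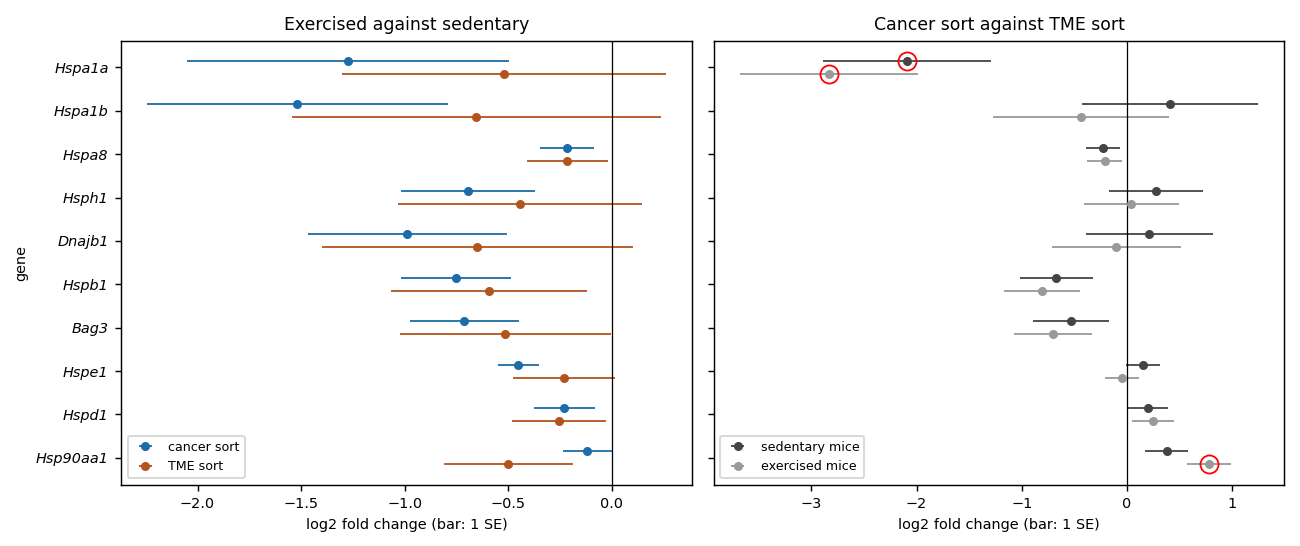
Log2 fold changes of the 10 genes with 1 SE from edgeR, for exercised against sedentary mice in either sort (left) and for the cancer sort against the TME sort in either treatment (right). Red circles mark an adjusted p under 0.05, which Hspa1a reached in both contrasts of the sorts and Hsp90aa1 in exercised mice. All exercise values lie left of 0.

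The same question was asked in the TME sort, where the errors were wider. None of the 10 passed the threshold and none of 16273 genes did (0%), and at an unadjusted p under 0.05 there were 0 of the 10 beside 8.44% of all genes (DESeq2 called 41 of all genes and none of the 10). All 10 fold changes were below 0, with a median of -0.51 and a range from -0.65 to -0.21, beside 48.7% of all genes below 0. Hspa1b was at 135, 167, 24.3 and 460.3 CPM in the sedentary libraries 4, 6, 9 and 10, and at 196, 54.5, 50.9 and 204 CPM in the exercised libraries 7, 8, 9 and 10. The exercised values lay between the extremes of the sedentary ones (-0.65 ± 0.89, SE). Hsp90aa1 had the smallest p of the 10, with 1403, 1328, 1060.2 and 2711 CPM in the sedentary and 1423, 836, 936 and 1453 CPM in the exercised libraries (-0.50 ± 0.31, adjusted p = 0.632).

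This direction rested on the sedentary library 10, the highest of its group in all 10 genes. Without it the median was -0.04, and Hspa1a, Hspa1b and Hsph1 turned to 0.50, 0.21 and 0.10. All 12 pan-leukocyte markers were above 0 in the exercised TME sort (median 1.10, none called), with summed levels of 305 to 1742 CPM against 424 to 533 CPM, and 9 of 10 endothelial markers were below 0. The part of these markers in the chaperone values was not tested. In the 10 wider lists 63 of 95 tested genes were below 0 (median -0.07, none called), among them all 5 small heat shock genes (Hspb6 at -0.46 ± 0.17) and 14 of 16 HSP90 genes and cochaperones (Sgta at -0.35 ± 0.11). In the other lists described the smallest p fell to Clpp (-0.52 ± 0.20), Sdf2l1 (0.37 ± 0.18), Ppp1r15a (0.38 ± 0.21), Dnaja2 (0.21 ± 0.12), Hspa13 (0.32 ± 0.21), Tcp1 (0.20 ± 0.14) and Hsf4 (-0.34 ± 0.29). Of the 20 immediate early genes 11 were below 0 (median -0.02), and Klf6 had the smallest p at 0.62 ± 0.23.

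Whether the exercise effect differed between the sorts was tested by the interaction. None of the 10 passed the threshold and none of 17503 genes did (0%), with 0 of the 10 at an unadjusted p under 0.05 beside 7.52% of all genes. The differences, cancer minus TME, lay between -0.84 ± 1.19 for Hspa1b and 0.40 ± 0.29 for Hsp90aa1 (log2, SE), with a median of -0.19 that turned to 0.10 with libraries blocked by number and was -0.58 without sedentary TME library 10. These errors leave room for differences as large as the exercise effects themselves.

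Levels in the sorts were then compared within each treatment. In sedentary mice 1 of the 10 was lower in the cancer sort and none higher, beside 40.8% of 17503 genes called in either direction. In exercised mice 1 was lower and 1 higher, beside 36.9%. The gene lower in both was Hspa1a. It was at 60.3, 75.1, 13.5 and 250.2 CPM in the sedentary TME libraries 4, 6, 9 and 10 and at 80.8, 54.2, 49.9 and 97.8 CPM in the exercised TME libraries 7, 8, 9 and 10. Every exercised TME library was above every exercised cancer library, whose highest value was 33.6 CPM, while the sedentary groups overlapped.

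The fold change of Hspa1a, cancer against TME, was -2.09 ± 0.80 in sedentary mice (SE; adjusted p = 0.0418 by edgeR) and -2.83 ± 0.85 in exercised mice (adjusted p = 0.0121). The sedentary call was lost without any of the cancer libraries 2, 3, 4, 5, 6 or 9 or the TME libraries 6 or 10, with values from -2.25 to -1.10, the last without TME library 10 (adjusted p = 0.334). With libraries blocked by number the exercised value was -3.14 (adjusted p = 0.0683). Its near copy Hspa1b had 0.41 ± 0.84 and -0.44 ± 0.84 in the same contrasts.

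Hsp90aa1 was higher in the cancer sort of exercised mice, by 0.78 ± 0.21 log2 (SE; adjusted p = 0.0050). The 7 cancer libraries were at 1457, 1938 and 2687 CPM (lowest, median and highest), and each lay above all 4 TME libraries. In sedentary mice the value was 0.38 ± 0.20 (adjusted p = 0.149), and 0.71 without TME library 10 (adjusted p = 0.0027). Hspb1 and Bag3 were below 0 in both treatments without a call, at -0.67 ± 0.35 and -0.53 ± 0.36 in sedentary and -0.81 ± 0.36 and -0.71 ± 0.37 in exercised mice. Blocked by number, both were called as lower in exercised mice (-0.86, adjusted p = 0.0095, and -0.57, adjusted p = 0.0413), and Hspb1 was called there without exercised TME library 9 (-1.06, adjusted p = 0.0352). In sedentary mice Hspb1 was called without cancer library 7 or TME library 9 (-0.86 and -0.93). Hspa8 was at -0.23 ± 0.16 and -0.21 ± 0.17. Hsph1, Dnajb1, Hspe1 and Hspd1 lay between -0.10 and 0.27 in these contrasts, with errors of 0.16 to 0.61.

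Of the wider lists, 22 of 96 genes were higher and 16 lower in the cancer sort of sedentary mice, beside 21.0% and 19.8% of all genes, and 23 were higher and 13 lower in exercised mice, beside 19.5% and 17.3%. TRiC had 2 of 8 higher in sedentary mice (Tcp1 at 0.67 ± 0.10 and Cct4 at 0.33 ± 0.10) and 5 of 8 in exercised mice, with Cct5, Cct6a and Cct7 added. Among HSP70 relatives Hspa4 (0.27 and 0.47 log2 in sedentary and exercised mice), Hspa4l (0.76 and 0.65), the mitochondrial HSP70 Hspa9 (0.25 and 0.47) and Hspa13 (1.13 and 0.74) were higher in both treatments, and Hspa12b (-1.78 and -1.36) was lower. The HSP40 gene Dnaja2 (0.64 and 0.33) was higher in both, Dnajb14 was higher and Dnajc7 lower in sedentary mice, and Dnajc21 was higher in exercised mice.

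Of the cochaperones of HSP90, Chordc1 (0.36 and 0.38) was higher and Fkbp8 (-0.36 and -0.32) lower in both treatments. Hsp90b1 was higher and Sgta lower in sedentary mice, and Trap1, Stip1, Fkbp5 and Ppid were higher in exercised mice. Of the cofactors of HSP70, Bag2 (0.40 and 0.63) and St13 (0.22 and 0.32) were higher and Bag1 (-0.86 and -0.48) lower in both, Bag4 was higher and Hspbp1 and Stub1 lower in sedentary mice, and Grpel2 was higher in exercised mice. The small heat shock genes Hspb8 (-3.73 and -2.71) and Hspb2 (-1.02 and -0.61) were lower and Hspb11 (0.45 and 0.41) higher in both. In mitochondria the protease genes Yme1l1 (0.82 and 0.70) and Clpp (-0.79 and -0.41) differed in both treatments, in opposite directions, and Clpx was higher and Lonp1 lower in sedentary mice. In the endoplasmic reticulum Canx (0.53 and 0.46) was higher and Manf (-0.56 and -0.65) and Creld2 (-0.46 and -0.43) lower in both, Hyou1, Dnajb9 and Dnajc3 were higher in sedentary mice and Sdf2l1 was lower in exercised mice. Hsf2 was higher in sedentary mice (0.48 ± 0.11).

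All 9 ubiquitin genes and other heat shock targets were below 0 in both treatments. Ubb (-0.88 and -0.98) and Jun (-0.52 and -0.65) were called lower in both, Rrad in sedentary mice, and Hmox1 and Osgin1 in exercised mice. Immediate early genes were called lower in 6 of 20 in sedentary and 11 of 20 in exercised mice, beside 19.8% and 17.3% of all genes. Jun, Junb, Ier3, Zfp36 (-1.05 and -1.61) and Klf2 were called in both, Ier2 in sedentary mice, and Fos, Fosb, Jund, Atf3, Btg2 and Dusp1 in exercised mice. Their part in the values of the 10 genes was not tested.

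The balance of the HSP70 copies was set beside the sorts, a measure chosen after the values had been seen and given with no test. Hspa1a took 8.19% ± 2.41 of the reads of both copies in the sedentary cancer sort (SD, n = 8; 4.61% to 11.3%) and 8.48% ± 2.63 in the exercised cancer sort (SD, n = 7; 5.26% to 12.2%). In the TME sort the share was 31.0%, 31.0%, 35.7% and 35.2% in the sedentary libraries 4, 6, 9 and 10. It was 29.2%, 49.9%, 49.5% and 32.4% in the exercised libraries 7, 8, 9 and 10. No cancer library overlapped any TME library.

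Between treatments the shares overlapped in either sort. The fewest reads were in the sedentary cancer library 4, with 26 for Hspa1a and 411 for Hspa1b and an interval of 4.09% to 8.57% (Wilson, 95%, counting error only). In the sedentary TME sort libraries 9 and 10 had 949 and 10301 reads of Hspa1b and nearly the same share. The exercised TME libraries 8 and 9 with the highest shares were those with the lowest Hspa1b of their group. They also had its highest pan-leukocyte levels, at 6.65 log2 CPM each, against 4.12 and 4.79 in libraries 7 and 10. The part of cell make-up in the share was not tested. Without libraries 8 and 9 the difference in exercised mice was -22.3 percentage points, against -31.8 with them.

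**Figure D3:**
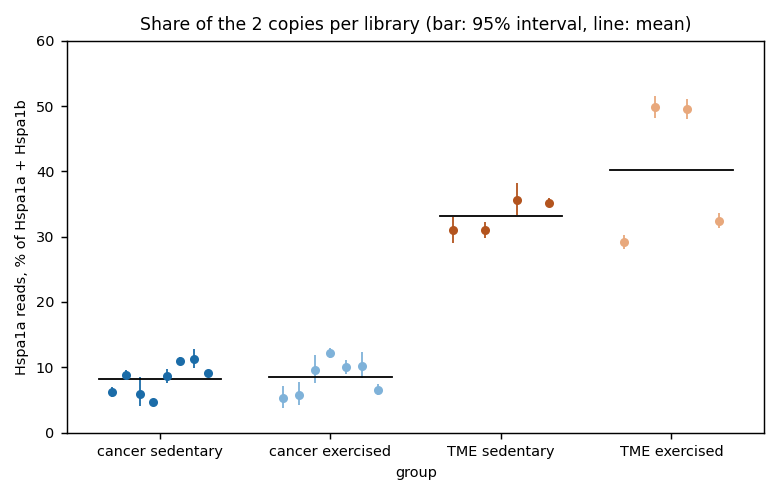
Reads of Hspa1a as a percentage of the reads of Hspa1a and Hspa1b in each library of the 4 groups, with Wilson 95% intervals and the group mean as a line. Every cancer library lies between 4.61% and 12.2% and every TME library between 29.2% and 49.9%.

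Libraries of the same group differed widely in some of these genes. Around the group means of the cancer sort, Hspa1b had an SD of 1.49 log2, the largest among 6216 genes whose mean log2 CPM reached 5, where Dnajb1 (0.96) ranked 4, Hsph1 (0.66) 16, Bag3 (0.53) 48 and Hspb1 (0.52) 53. The median SD of all genes tested was 0.28. The constitutive Hspa8 (0.29), Hsp90aa1 (0.25) and the mitochondrial Hspe1 (0.21) and Hspd1 (0.33) were close to that median, which includes low genes, and ranked 503, 850, 1559 and 312 among the 6216. Hspa1a, with a mean log2 CPM of 3.27 in the cancer sort, had an SD of 1.67 there and ranked 9 among 17503 genes. In the TME sort Hspa1b had an SD of 1.47, Hspa1a 1.26 and Dnajb1 1.18, beside a median of 0.32. They ranked 14, 26 and 35 among the 6227 genes whose mean log2 CPM reached 5 in that sort.

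The same libraries were high or low throughout. In the sedentary cancer sort library 4 was the lowest for 9 of the 10 genes, library 9 was under the group median for all 10, and libraries 7 and 10 were above it for all 10. Among exercised cancer libraries 5 and 7 were above the median for all 10 and library 10 for 9, while library 8 held the median itself for most genes. Sedentary TME library 10 was the highest and library 9 the lowest for all 10, and exercised TME libraries 7 and 10 were above, and 8 and 9 below, the median for all 10.

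**Figure D4:**
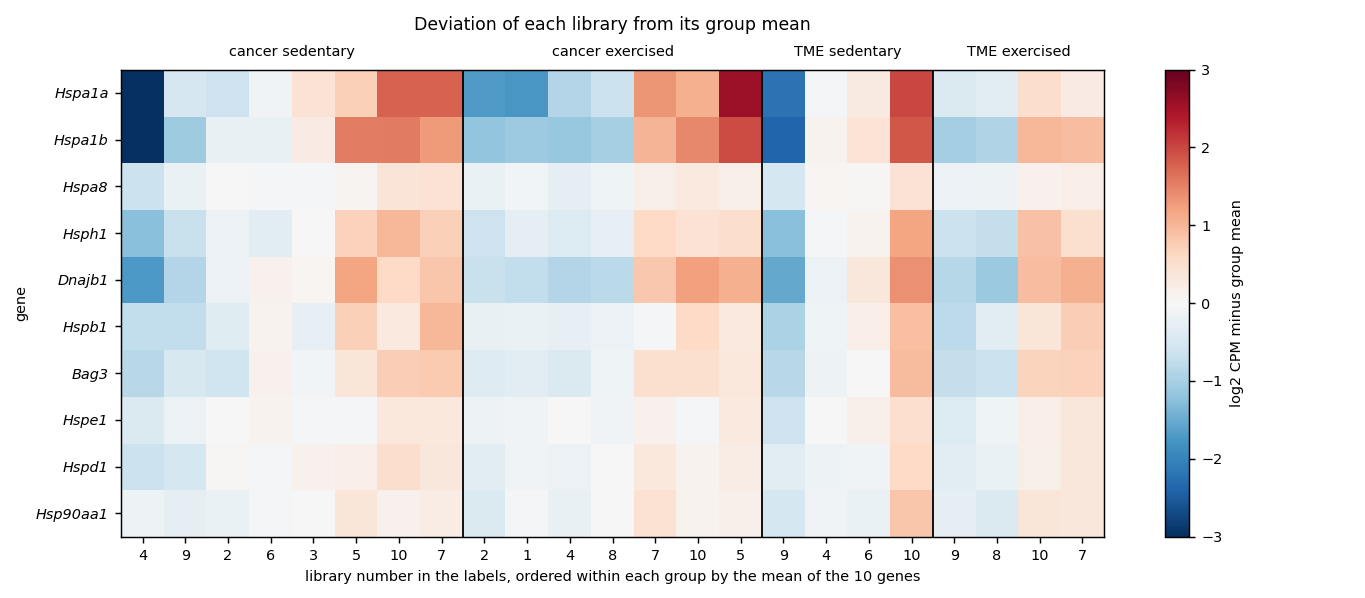
Log2 CPM of the 10 genes minus the mean of their group (colour) in the 23 libraries, ordered within each group by the mean of the 10 genes. Columns are mostly of a single colour, and the deviations are widest in Hspa1a, Hspa1b and Dnajb1.

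The genes varied together between libraries of a group. Within the 8 sedentary cancer libraries the 45 pairs of genes had a median Pearson r of 0.88 and a median Spearman rho of 0.86, from r of 0.53 to 0.97, and by exact permutation tests 42 of the 45 had an adjusted p under 0.05 for r and 40 for rho. Over all 15 cancer libraries with group means removed the median r was 0.86 and the median rho 0.83, from r of 0.54 (Hspe1 with Hsp90aa1) to 0.98 (Hspa1b with Dnajb1), and all 45 passed in 100000 permutations within groups. Without the 2 libraries farthest from the median the lowest r of these was 0.56. Because the 7 exercised libraries lay in clusters of 4 and 3 for the inducible genes, no r is given for them alone. The same clusters enter the values over the 15 libraries, whose permutations treat each library as separate. Of all pairs among the genes tested 6.13% had an r at or above the lowest of the 45 over the 15 libraries, and 13.1% in the 8 sedentary ones, with a median r of 0.01 in both. Among genes whose mean log2 CPM reached 5 these shares were 11.8% and 18.5%. All pairs share the libraries and their depth.

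Hsph1 and Hspd1 ran closest in rank, with a rho of 0.98 over the 15 libraries and r = 0.95, and lie on different chromosomes. Hspa1a and Hspa1b had r = 0.96, a value that shared reads can raise. Hspe1 and Hspd1, which share a promoter region, had r = 0.86, and the 5 lowest of the 45 r all involved Hsp90aa1 or Hspe1.

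Measures of the libraries were then set beside the genes, 60 relations in all. Total counts had a median r of 0.15 with the 10 genes over the 15 cancer libraries, the mitochondrial share -0.10 and the pan-leukocyte level -0.22, and none of these relations had an adjusted p under 0.05. In the 8 sedentary libraries alone the mitochondrial share had a median r of 0.51, again with none passing. The pan-leukocyte level had a median r of -0.06 there, with none passing. Without the 2 libraries farthest from its median, its r ran from -0.50 (Hsp90aa1) to -0.88 (Hspa1b), given without a test. The endothelial level had a median r of 0.46 over the 15 libraries and passed for Hspa1a only. The immediate early level had a median r of 0.76 and an adjusted p under 0.05 for 8 of the 10 genes, or 7 for rho. At an unadjusted permutation p under 0.05 there were 10 of the 10, beside 14.2% of all genes with an r above 0 at that p. Dnajb1 was highest (r = 0.87, rho = 0.86, permutation p = 5e-05 and 6e-05, adjusted p = 0.0016 and 0.0036). Without the 2 libraries farthest from the median its r was 0.81, and the r of the 10 genes ranged from 0.42 (Hspe1) to that value. Hspe1 (r = 0.64, rho = 0.62, adjusted p = 0.0564 by permutation) and Hsp90aa1 (r = 0.58, rho = 0.56, adjusted p = 0.0849 by permutation) did not pass. The immediate early level split the exercised libraries too. It was 6.35 to 6.57 log2 CPM in libraries 1, 2, 4 and 8, and 6.87 to 7.50 in 5, 7 and 10. The permutations treat each library as separate.

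In the 8 sedentary cancer libraries alone the median r with the immediate early level was 0.80, and Hspa8, Dnajb1 and Hspb1 passed for r (exact permutation, adjusted p = 0.0399 each), while none passed for rho. Without the 2 farthest libraries these r fell to between 0.13 (Hspd1) and 0.71 (Hspb1), so the relation in sedentary libraries rests largely on libraries 4 and 9, which had the lowest immediate early levels. The level of endoplasmic reticulum chaperones had a median r of 0.70 over the 15 libraries, with 9 of 10 genes passing for r and 6 for rho, and of 0.88 in the 8 sedentary ones, with 7 of 10 passing for r and none for rho. Of all genes 14.3% and 10.9% had an r above 0 with that level at an unadjusted permutation p under 0.05, beside 9 and 10 of the 10 genes. For the immediate early level in the 8 libraries it was 10.7%, beside 9 of the 10.

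**Figure D5:**
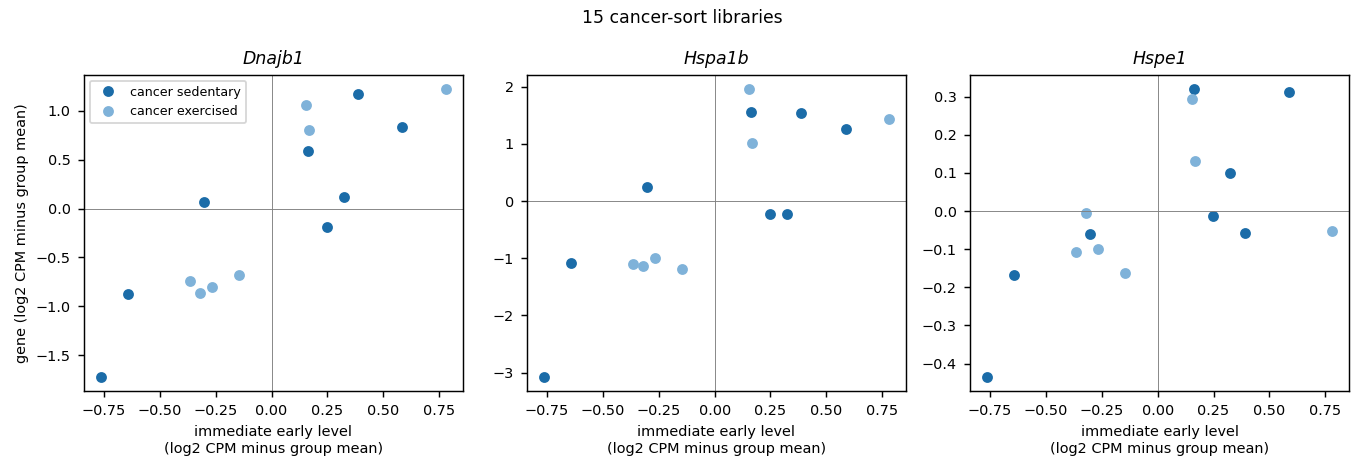
Log2 CPM of Dnajb1, Hspa1b and Hspe1 minus the group mean (vertical) against the mean log2 CPM of 20 immediate early genes minus the group mean (horizontal) in the 15 cancer libraries. Points rise from lower left to upper right, with r of 0.87 for Dnajb1, 0.81 for Hspa1b and 0.64 for Hspe1.

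In 7 cases a cancer and a TME library of the same treatment carry the same number, namely 4, 6, 9 and 10 of sedentary and 7, 8 and 10 of exercised mice. With treatment means removed, the 10 genes had r of 0.46 (Hspa1a) to 0.87 (Hspd1) between the sorts, with a median of 0.72, and rho of 0.61 to 0.86. Without the 2 numbers farthest from the median r was 0.31 (Hspa1a) to 0.95 (Bag3). None passed adjustment over the 10 (the lowest adjusted p was 0.174 by exact permutation over 144 arrangements, whose smallest possible p is 0.0069). The median r was 0.48 without number 10 and 0.91 without number 4 of the sedentary mice. The cancer library 4 was the lowest of its group for 9 genes, while TME library 4 was below the median for 8 of 10 genes and not the lowest.

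Genes that followed the mean of the 10 most closely over the 15 cancer libraries were ranked among 10879 genes whose mean log2 CPM reached 1. They were the MAP kinase phosphatase Dusp8 (r = 0.98), the EGF family ligands Epgn (0.97) and Areg (0.96), the mitochondrial carrier Slc25a25 (0.95), the kinase Pim3 (0.94), the NF-kappaB regulator Tnfaip3 (0.94), Coq10b (0.94) and the nuclear receptor Nr4a2 (0.93). In the 8 TME libraries, which the ranking did not use, their r lay between 0.73 (Pim3) and 0.95 (Dusp8), where all genes ran from -0.98 to 0.98. These libraries may not be independent of the cancer sort, since 7 of them carry the number of a cancer library of the same treatment. The most opposed in the cancer sort were Proser1 (-0.91), the spliceosome core gene Prpf8 (-0.90), Mlst8 (-0.90) and Zyg11b (-0.90). Ranked over the 8 TME libraries the highest were Macrod2 (0.98), the HSP40 gene Dnaja4 (0.98), Id3 (0.97), Srxn1 (0.96), Flywch1 (0.96), Rnf122 (0.96), S100a1 (0.96) and Stx11 (0.96), and of these Dnaja4 had 0.89 and Macrod2 0.26 in the cancer sort. The lowest there were Pigg (-0.98), Pdcd2l (-0.97), Clec16a (-0.97) and Il4 (-0.97).

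By list, the r with the mean of the 10 genes in the cancer sort had a median of 0.71 for ubiquitin genes and other heat shock targets, 0.66 for immediate early genes, 0.54 for the small heat shock genes and 0.51 for endoplasmic reticulum chaperones, beside 0.02 for all genes. In the TME sort these medians were 0.57, 0.70, 0.37 and 0.16, beside -0.05. TRiC had -0.05 and -0.47. Genes were spread within a list. In the cancer sort immediate early genes ran from -0.39 (Ier2) to 0.93 (Nr4a2) and endoplasmic reticulum chaperones from -0.50 (Canx) to 0.76 (Dnajb11). In the TME sort immediate early genes ran from -0.64 (Ier2) to 0.95 (Nr4a1). Single chaperones ran with the 10 outside these lists' medians, such as Dnajb4 (0.92), Bag1 (0.87), Cryab (0.87) and Hsp90ab1 (0.78) in the cancer sort, while Hspa13 and the cochaperone Chordc1 had -0.75 each. Genes with the longer heat shock unit in their upstream window (54 tested) had a median r of 0.12 in the cancer sort and 0.01 in the TME sort, and the 1366 genes with a pair of units had 0.03 and -0.05. Among cell type markers in the TME sort, the median r was -0.62 for pan-leukocyte, -0.64 for macrophage and -0.75 for T cell genes, with none above 0. Neutrophil markers had 0.01, endothelial markers 0.16 and fibroblast and pericyte markers 0.19 there. The 6 tested epithelial and tumour markers had a median of 0.72 in that sort. Of these 4 were above 0, and they ran from -0.71 (Epcam) to 0.91 (Krt18). In the cancer sort the pan-leukocyte, macrophage and T cell medians were -0.28, -0.16 and -0.28. The epithelial and tumour median was 0.57 there, with all 6 above 0, and the endothelial median was 0.29. These correlations describe libraries that share depth and handling and carry no test.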

How the data were processed

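The authors deposited a table of raw read counts for 23 libraries of polyA RNA, and all 23 columns were used. STAR and featureCounts were the tools and mm10 the build, per the submitters' processing notes. Their versions, the annotation and the strand setting are not stated there or in the labels, so a gene's reads cannot be told apart from those of an antisense or overlapping gene. RNA was taken with Trizol and libraries were made with a KAPA kit for mRNA, per the labels' protocols. Coordinates are from GENCODE M21 (GRCm38), matched by symbol for 95.9% of the table, and upstream sequences from RefSeq.

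Counts were analysed with R 4.3.3 and edgeR 4.0.16: filterByExpr, TMM scaling, robust quasi-likelihood test, two-sided, Benjamini-Hochberg adjustment over all genes, threshold 0.05. The exercise effect was fitted in 15 cancer and, apart, in 8 TME libraries. The contrasts of the sorts and the interaction were fitted on all 23. Fold changes are log2 ± SE of the fit. CPM values are TMM-scaled, and log2 CPM has a prior count of 2. A list's level is the mean log2 CPM of its genes. Permutation tests were two-sided, with 100000 resamples within groups or exact. Counting error at these depths matters most for Hspa1a, with 26 reads in its poorest library.

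The 10 genes and the lists were chosen with earlier results of these data known. Named genes are the 10, the called genes of each wider list or otherwise its member with the smallest p (not for the interaction, and leaving out 1 gene that is counted but not reported here), and the 8 most and 4 least correlated genes per sort. The share of Hspa1a and the promoter motifs were chosen after the values were seen.

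Whether numbers pair the sorts was checked by correlating deviations from group means over all genes. In exercised mice the r were 0.14, 0.24 and 0.18 for numbers 7, 8 and 10. The values blocked by number are given there where a call changed. The TME libraries numbered 9, from different treatments, had an r of 0.23, so an r of this size does not establish pairing. The labels give no source of the pairing. The 7 exercised cancer libraries fall in clusters, so their planned correlations are not given. On simulated data with these libraries, 90% of genes changed by 1 log2 were recovered in the cancer sort over 15096 genes. In the TME sort it was 56% over 16273, and between sedentary sorts 77% over 17503. There were 16, 13 and 3 false calls in these runs. At this size 100 genes per comparison were changed, picked at random from those with a mean of at least 1 CPM. Each gene was simulated on its own. These shares therefore do not give the recovery for the 10 genes, which varied together between libraries. Alternatives were DESeq2 1.42.0, limma 3.58.1 voom with quality weights, RLE scaling, removal of mitochondrial genes, 2 other filters, a replicate block, covariates, all 23 libraries in a single fit, and each library left out.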

Additional observations from a re-analysis of the deposited data

Results flagged for a closer look

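Of 40 combinations of gene and group checked for an extreme library, 1 stood out. Hspa1a in the sedentary cancer library 4 was at 1.33 CPM, the lowest of its 8 libraries, and on the log2 scale its gap to the next library was 0.541 of the whole range, against a critical value of 0.526. The same library was the lowest of its group for 9 of the 10 genes. Chance flags about 1 in 20 groups.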

How the results depend on the processing

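For exercise in the cancer sort, the number of the 10 genes called lower was 0 as reported, 1 with DESeq2, 5 with limma voom, 1 without a filter, and 0 to 1 with a library left out. All 10 stayed below 0 in every alternative run. Hspe1 was called in each of these 3 settings, and in voom Hspa1b, Dnajb1, Hspb1 and Bag3 were added. The cause was not tested. Over all genes DESeq2 called 161, voom 197 and the fit without a filter 28, against 0. In the TME sort Hspa1a turned to 0.22 with the replicate block, and left-out libraries gave -0.89 to 0.50 for Hspa1a, -1.03 to 0.21 for Hspa1b and -0.79 to 0.10 for Hsph1.

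For cancer against TME cells in sedentary mice the number lower was 1 as reported, 2 with voom, 0 without a filter, 2 with the replicate block and 0 without TME libraries 4 and 6. It was 0 to 2, and the number higher 0 to 1, with a library left out. Hspa1b turned to -0.14 with the block, which called Hspb1 and Bag3 and left Hspa1a at an adjusted p of 0.0722. Of all genes, 4323 were called without TME libraries 4 and 6, against 7142. In exercised mice the number lower was 2 with the block, for Hspb1 and Bag3, and 1 to 2 with a library left out, and 3517 of all genes were called with the block, against 6456. In sedentary mice the pairing by number was not borne out (r of -0.06 to 0.05). Between treatments, where the samples share only a number, r was -0.07 to 0.23. The 0.23, for the TME libraries numbered 9, was within the 0.14 to 0.24 of the exercised sorts. The r therefore does not settle the pairing in exercised mice. In exercised mice Hspa1a had an adjusted p of 0.0683 with the block. The block changed no other call among the 10.

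The median r between sorts of a number was 0.48 to 0.91 with a number left out. For the interaction DESeq2 called 2 of all genes, voom 40 and the block 14, against 0, and none of the 10. Of 1077 values recomputed, 1020 kept direction and side of the threshold or stayed within the spread. For a median fold change of the 10 genes, that spread was the pooled SD of their mean level within groups. This SD was 0.71, 0.59, 0.89 and 0.61 log2 in the 4 groups, beside exercise medians of -0.70 and -0.51. A shift of the TME median from -0.51 to -0.04 therefore counted as kept. Directions of the members not named singly between sorts were unstable near 0, turning in 9 of 19 alternatives for Hsph1 and 8 for Dnajb1 in exercised mice.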
